A study of Homo sapiens with 18 samples.

Results

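Transcripts of glycolysis and of the response to low oxygen were followed in MSTO-211H cells, a human mesothelioma line, on 18 HGU133A arrays. The genes were chosen by name, as probe sets whose only gene symbol in the platform annotation is on a list of 38 genes, and 35 of these have a probe set, out of 11963 genes on the array. CA9, SLC16A1 and SLC16A3 have no probe set of their own and were left out. The 35 genes have 65 probe sets, 17 of the genes have several, and each gene is represented here by the probe set with the highest mean over the 18 arrays.

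The study compared untreated cells with cells given piroxicam (P), a non-steroidal anti-inflammatory drug, at 760 µM, cisplatin (C), a DNA-damaging platinum drug, at 4.5 µg/mL, or both together (P/C), for 8 h or 24 h. All groups shared 1 cell line, seeded in complete medium and left to attach before treatment, and the labels name no exposure to low oxygen. At 8 h there were 2 arrays for each of untreated, P, C and P/C, numbered replicates 1 and 3. At 24 h there were 2 untreated arrays (replicates 1 and 2), 3 P arrays, 3 C arrays and 2 P/C arrays (replicates 1 and 3).

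When oxygen is short, hypoxia-inducible factors (HIF) are no longer hydroxylated by the EGLN enzymes, escape degradation and bind short DNA motifs near genes for glucose uptake, glycolysis, blood vessel growth and mitophagy. Glycolysis breaks glucose down to pyruvate, lactate dehydrogenase turns pyruvate into lactate, and the PDK kinases inhibit pyruvate dehydrogenase in the mitochondrion. Many tumour cells run this pathway hard even in oxygen. The deposited values are log2 signals, on which a difference of 1 is a doubling, and a signal of 100 is 6.64. Signals of different probe sets are not on a common scale, so each gene is compared only with itself.

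The cells were first checked against markers. Of 12 markers of mesothelial cells and mesothelioma, KRT8, KRT18 and VIM lay at a signal of at least 100 on every array, while the other 9, among them CALB2, MSLN and WT1, lay below it on every array. The markers of leukocytes and red cells (5 with a probe set) and of endothelium (4) all stayed below a signal of 100, as did 4 of 5 fibroblast markers, and COL3A1 ranged from 3.44 to 7.69.

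Of the 35 genes, 14 lay at a signal of at least 100 on every array, 14 lay below it on every array, and 7 crossed it. The genes that were always bright are BNIP3 and the main glycolytic enzymes from HK1 and GPI to LDHA and LDHB, without HK2, and the always dim ones include NDRG1, both glucose transporters SLC2A1 and SLC2A3, PDK1, PDK3, EGLN1 and BHLHE40. A filter rebuilt from the study's methods, whose set need not be the study's own, keeps probe sets with an interquartile range from 0.25 upwards whose signal reaches 100 on 25% of the arrays or more. It left 3057 probe sets, among them the representatives of 12 of the 35 genes. These were ADM, VEGFA, BNIP3L, HK1, HK2, GPI, PFKM, PFKP, TPI1, PKM, LDHA and MXI1. Of the rest, 7 failed only for their small range, 9 only for their signal and 7 for both. A gene counts as called where its limma p, adjusted by Benjamini-Hochberg over the tested probe sets, does not exceed 0.05 and its log2 difference reaches 1 in size (2-fold). Genes that missed the filter were read from a second fit of 22215 probe sets.

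**Figure D1:**
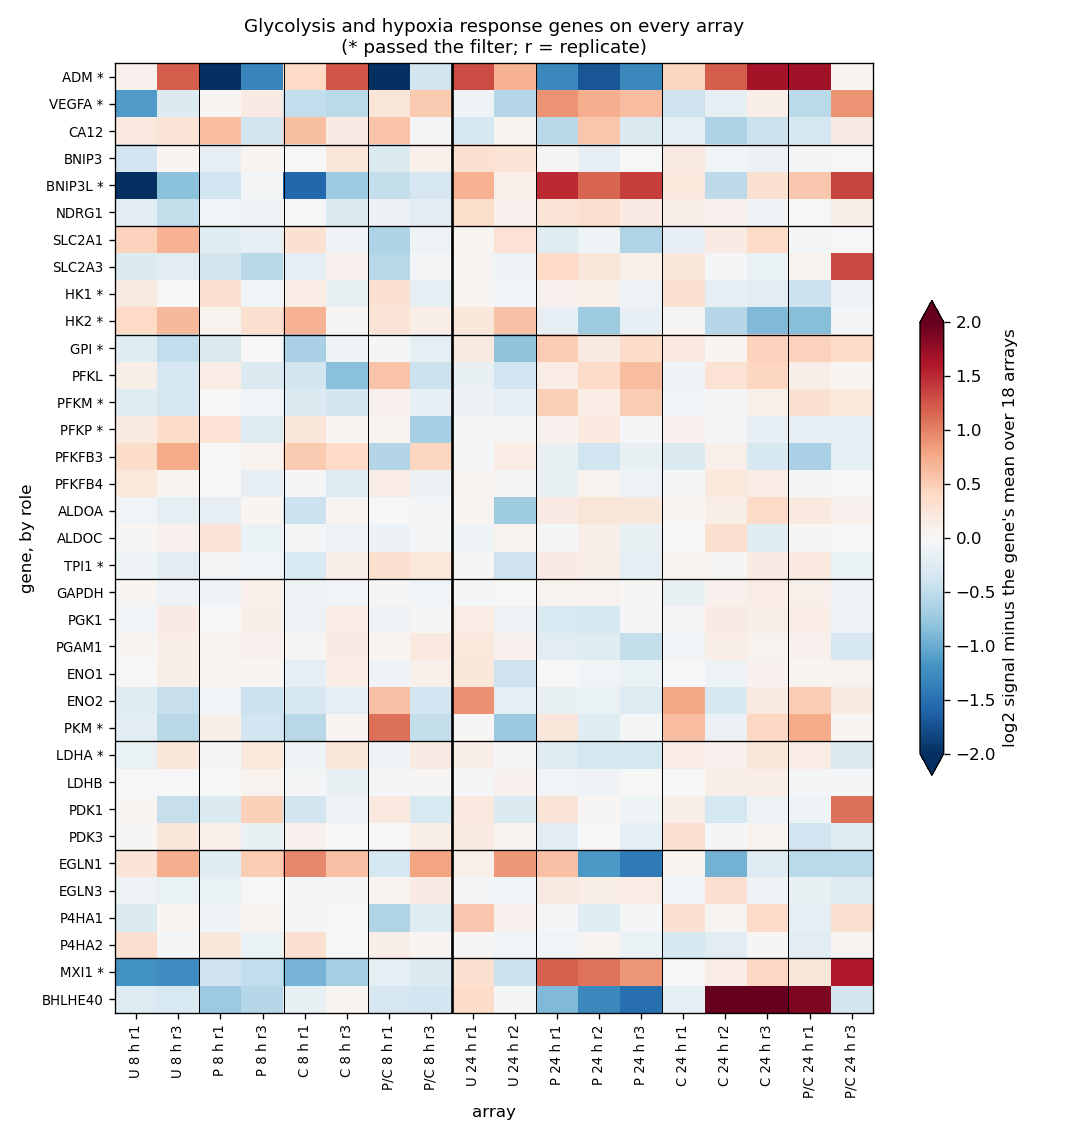
Each row is one of the 35 genes, ordered by role, and each column one of the 18 arrays; colour gives the log2 signal minus that gene's mean over the arrays, and an asterisk marks the 12 genes that passed the filter. The block of glycolytic enzymes is pale on most arrays, while ADM is low on the P arrays at both times and MXI1 and BNIP3L are lower at 8 h than at 24 h.

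Promoter sequences are shown for ADM and MXI1, the called genes with an entry in the RefSeq promoter table (GRCh38.p14), because these are genes at which HIF is known to act. Each sequence runs from 250 bases before to 50 bases after an annotated start, 5′ to 3′ on the gene's strand. The motifs searched on both strands were ACGTG and GCGTG, the core letters of the hypoxia response element, and matches stand in capitals. No matches overlapped. The ADM promoter is chr11:10304823-10305122 on the plus strand and holds 1 match, GCGTG, which begins at position -101 from the start. MXI1 has 3 annotated starts, all on the plus strand. The first window, chr10:110207355-110207654, holds no match, the second, chr10:110209981-110210280, holds GCGTG at -127 and ACGTG, read on the minus strand as CACGT, at -113, and the third, chr10:110225746-110226045, holds GCGTG at -131 and, on the minus strand, at 8.
ADM: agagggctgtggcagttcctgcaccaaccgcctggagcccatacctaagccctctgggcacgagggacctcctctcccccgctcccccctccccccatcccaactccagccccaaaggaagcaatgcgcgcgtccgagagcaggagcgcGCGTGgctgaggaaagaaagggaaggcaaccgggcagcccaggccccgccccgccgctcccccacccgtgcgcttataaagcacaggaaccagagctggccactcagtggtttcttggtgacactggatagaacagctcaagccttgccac
MXI1 start 1: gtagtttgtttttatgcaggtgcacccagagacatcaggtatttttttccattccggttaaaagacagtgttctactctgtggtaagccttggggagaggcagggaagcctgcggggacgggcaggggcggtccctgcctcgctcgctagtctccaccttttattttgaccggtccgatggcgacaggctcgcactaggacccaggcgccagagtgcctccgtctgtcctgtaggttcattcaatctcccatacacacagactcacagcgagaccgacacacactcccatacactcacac
MXI1 start 2: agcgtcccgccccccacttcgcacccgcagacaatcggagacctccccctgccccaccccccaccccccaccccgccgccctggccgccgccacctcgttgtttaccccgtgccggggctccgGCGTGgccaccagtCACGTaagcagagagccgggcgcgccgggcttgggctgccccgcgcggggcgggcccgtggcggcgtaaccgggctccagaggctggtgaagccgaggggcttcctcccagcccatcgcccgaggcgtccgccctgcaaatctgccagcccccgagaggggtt
MXI1 start 3: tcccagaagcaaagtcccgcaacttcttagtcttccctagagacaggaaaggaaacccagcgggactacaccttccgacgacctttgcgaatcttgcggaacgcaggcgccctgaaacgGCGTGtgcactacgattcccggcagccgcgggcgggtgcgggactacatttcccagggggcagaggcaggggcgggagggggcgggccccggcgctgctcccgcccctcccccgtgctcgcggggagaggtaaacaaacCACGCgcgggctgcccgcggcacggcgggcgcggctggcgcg
Such short words are common. Of 35116 RefSeq promoters, 48.4% hold at least 1 of them, with ACGTG in 21.4% and GCGTG in 36.5%. The 33 listed genes with an entry, CA9 and SLC16A3 among them, have 61 promoters, of which 41 (67.2%) hold a match, in 30 of the genes. Over all promoters, 14318 of 27305 genes have a match. A match describes the letters of a window and is no evidence of binding.

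ADM, which encodes the secreted vasodilator peptide adrenomedullin, was lower in cells given piroxicam. On the 8 h arrays its signal was 6.26 and 7.39 untreated, 4.18 and 4.87 in P, 6.57 and 7.42 in C, and 4.09 and 5.80 in P/C. The 4 arrays with piroxicam lay below the 4 without it, with no overlap. Taken over those arrays, P and P/C against untreated and C, ADM fell by 2.17 on the log2 scale (SE 0.42, limma adjusted p = 0.00815) and was the only 1 of the 12 tested genes called, where 1.9% of the 3057 tested probe sets were. ADM passed the filter mainly through arrays without piroxicam, where it is high. It was also called in the fit of all probe sets (limma adjusted p = 0.0297), which does not depend on the filter and where 0.572% were. In RNA from whole cultures, fewer cells of a kind and less transcript per cell cannot be told apart. Against untreated cells alone the 8 h differences were -2.29 in P (limma adjusted p = 0.129) and -1.88 in P/C (limma adjusted p = 0.208), and neither was called. At 8 h arrays with the same replicate number deviated together, and with the number as a block the P difference of -2.29 was called (limma adjusted p = 0.0365).

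At 24 h the ADM signal was 7.48 and 6.86 untreated, 4.88, 4.45 and 4.88 in P, and 6.60, 7.39 and 7.84 in C. The 3 P arrays lay well below all others. ADM fell by 2.43 in P (SE 0.54, limma adjusted p = 0.00473), which was called also in the fit of all probe sets (limma adjusted p = 0.0229), where 3.52% were called. The 2 P/C arrays were far apart, at 7.87 for replicate 1 and 6.23 for replicate 3, and their mean differed from untreated by -0.12, with a 95% interval of -1.39 to 1.14. P/C was 2.31 above P alone (SE 0.54, limma adjusted p = 0.0538), just outside the limit, where 0.164% of the tested probe sets were called. Without P/C replicate 3 this was 3.13 and called (limma adjusted p = 0.00583), and without P/C replicate 1 it was 1.49 (limma adjusted p = 0.627). Averaged over the groups with and without piroxicam at 24 h, ADM fell by 1.33 (SE 0.38, limma adjusted p = 0.0179), where 6.18% of the tested probe sets were called. Without P/C replicate 1 it fell by 1.74 (limma adjusted p = 0.00387). The call was lost without P/C replicate 3 (-0.92, limma adjusted p = 0.125), without untreated replicate 1 (-1.18, limma adjusted p = 0.0659) and in the fit of all probe sets (limma adjusted p = 0.0707).

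VEGFA, the main growth factor for blood vessels, went the other way. At 8 h its signal was 5.43 and 6.30 untreated, 6.61 and 6.74 in P, 6.08 and 6.03 in C, and 6.81 and 7.09 in P/C. The arrays with piroxicam lay above those without it. The difference over the 8 h groups was 0.85 (SE 0.27, limma adjusted p = 0.0752) and was not called. At 24 h the signal was 6.49 and 5.999 untreated, 7.47, 7.30 and 7.19 in P, 6.15, 6.39 and 6.71 in C, and 6.03 and 7.47 in P/C. VEGFA rose by 1.08 in P (SE 0.34, limma adjusted p = 0.0297), and the difference over the 24 h groups was 0.70 (limma adjusted p = 0.04), under the fold limit. Without P/C replicate 1 the latter was 1.06 and called (limma adjusted p = 0.00141), and without P/C replicate 3 it was 0.34 (limma adjusted p = 0.261). The P arrays lay above every untreated and C array, and the P/C arrays lay at either end. A second VEGFA probe set, below a signal of 100 on every array, differed by 0.85 (limma adjusted p = 0.0128 over all probe sets), past the p limit but under the fold limit. The call of the first did not hold in the fit of all probe sets (limma adjusted p = 0.0879), nor without any 1 of the 3 P arrays (limma adjusted p of 0.0548 to 0.0747) or without untreated replicate 2 (0.83, limma adjusted p = 0.239). With the replicate number as a block at both times VEGFA was not called in P at 24 h either. CA12, a carbonic anhydrase of the cell surface, ranged from 5.45 to 6.68 over the 18 arrays and was not called, with a P difference at 24 h of 0.05 and a 95% interval of -0.68 to 0.78.

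MXI1, a MAX-binding repressor that opposes MYC, was the third gene called with P at 24 h. Its 8 h signal was 5.16 and 5.12 untreated, 5.95 and 5.88 in P, 5.44 and 5.69 in C, and 6.18 and 6.09 in P/C. At 24 h it was 6.67 and 5.95 untreated, 7.55, 7.46 and 7.24 in P, 6.38, 6.51 and 6.78 in C, and 6.60 and 7.97 in P/C. At 8 h the arrays with and without piroxicam did not overlap, and at 24 h the P arrays lay above every untreated and C array. MXI1 rose by 1.11 in P at 24 h (SE 0.31, limma adjusted p = 0.0158), also in the fit of all probe sets (limma adjusted p = 0.0473), and the difference over the 24 h groups with and without piroxicam was 0.92 (SE 0.22, limma adjusted p = 0.00707), past the p limit but under the fold limit. The call in P was lost with the replicate number as a block at both times. Without untreated replicate 2 the P difference was 0.75 and was not called (limma adjusted p = 0.219). In P/C the difference was 0.98 (SE 0.34, limma adjusted p = 0.0728).

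With P at 24 h, then, 3 of the 12 tested genes were called, VEGFA and MXI1 higher and ADM lower, where 14.6% of the 3057 tested probe sets were called, 3.14% higher and 11.4% lower. The fit of all probe sets does not depend on the filter. There 2 of the 35 genes were called, ADM and MXI1, where 3.52% of the 22215 probe sets were. Over all 35 genes, which is not a test, the median difference was 0.03, and over all 11963 genes it was also 0.03. At 8 h none of the 12 was called in P or in P/C, where 0.491% and 0.622% of the tested probe sets were called, and 4 and 5 of the 12 had an unadjusted p under 0.05, as did 9.58% and 11.8% of the tested probe sets.

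**Figure D2:**
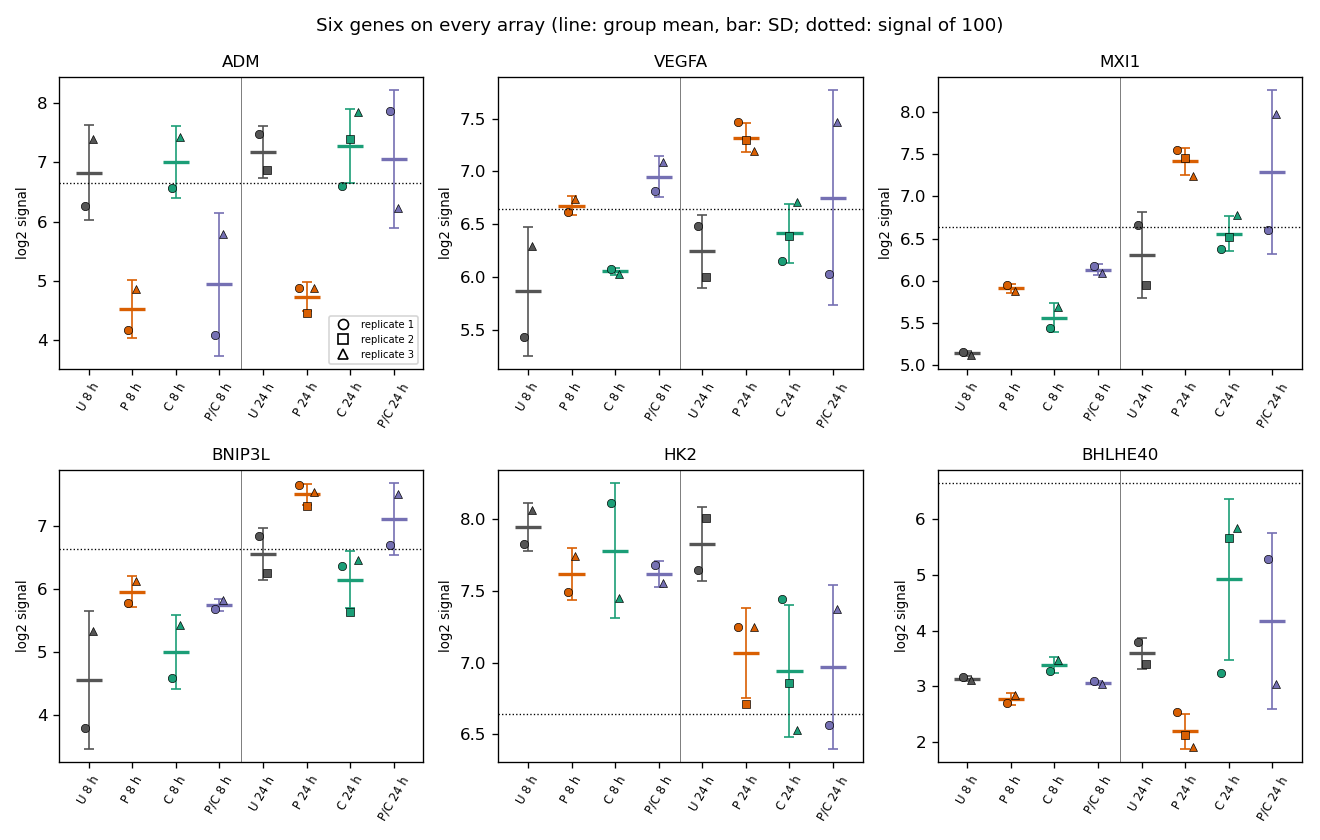
Log2 signal of ADM, VEGFA, MXI1, BNIP3L, HK2 and BHLHE40 on every array, by group, with a line at the group mean, a bar of 1 SD, marker shapes for the replicate number and a dotted line at a signal of 100. The P arrays at 24 h are tightly grouped (ADM 4.45 to 4.88), while the 2 P/C arrays at 24 h are far apart (MXI1 6.60 and 7.97).

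Among the genes of mitophagy and stress, BNIP3L (also called NIX), a receptor that directs mitochondria to autophagy, was the one that varied. At 8 h its signal was 3.79 and 5.34 untreated, 5.78 and 6.13 in P, 4.59 and 5.42 in C, and 5.68 and 5.82 in P/C. The untreated arrays were 1.55 apart, and all arrays with piroxicam lay above all without it. The difference over the 8 h groups was 1.07 (SE 0.31, limma adjusted p = 0.0568) and was not called, but was with the replicate number as a block (limma adjusted p = 0.0241). At 24 h the signal was 6.85 and 6.26 untreated, 7.65, 7.32 and 7.54 in P, 6.37, 5.63 and 6.46 in C, and 6.70 and 7.51 in P/C, and the P difference was 0.95 (SE 0.40, limma adjusted p = 0.0863). Over the 24 h groups with and without piroxicam the difference was 0.95 (SE 0.28, limma adjusted p = 0.0208), under the fold limit. The other BNIP3L probe set, which failed the filter, had the opposite sign in P at 24 h (-0.81, limma adjusted p = 0.54 over all probe sets), while at 8 h it was higher with piroxicam by 0.78 (limma adjusted p = 0.666 over all probe sets), so the signs of the probe sets differ at 24 h and not at 8 h. BNIP3, its relative, stayed between 8.55 and 9.25 on all arrays, and NDRG1, a stress gene often used as a hypoxia marker, stayed dim at 2.05 to 2.88.

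Among the transcripts of glucose uptake, both transporters stayed below a signal of 100 on every array. SLC2A1 (GLUT1), the classic hypoxia-induced glucose transporter, ranged from 2.73 to 4.04. On the 8 h arrays it was 3.81 and 4.04 untreated, 3.11 and 3.18 in P, 3.65 and 3.27 in C, and 2.73 and 3.24 in P/C, so the piroxicam arrays were the lower ones without overlap, but all these values are far below a signal of 100 and the difference of -0.63 was not called (limma adjusted p = 0.0819 over all probe sets). SLC2A3 (GLUT3) ranged from 3.15 to 5.03, with its highest value on P/C replicate 3 at 24 h. HK1, the housekeeping hexokinase, stayed between 7.19 and 7.92.

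HK2, the inducible hexokinase that traps glucose in the cell, was lower on the arrays of treated cells at 24 h, but not by enough to be called. Its 24 h signal was 7.64 and 8.01 untreated, 7.25, 6.71 and 7.25 in P, 7.44, 6.85 and 6.53 in C, and 6.57 and 7.37 in P/C. The differences were -0.76 in P (SE 0.31, limma adjusted p = 0.0734), -0.88 in C (SE 0.31, limma adjusted p = 0.26) and -0.86 in P/C (SE 0.33, limma adjusted p = 0.104), and these 3 comparisons share the same 2 untreated arrays. Without C replicate 1, whose array correlated best with an untreated array, the C difference was -1.13 and was called (limma adjusted p = 0.0422). A dim second probe set of HK2 differed by 0.97 in P at 24 h, in the opposite direction (limma adjusted p = 0.0141 over all probe sets).

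The enzymes of glycolysis itself differed little between treatments. Of 19 glycolytic enzymes with a probe set, hexokinases and lactate dehydrogenases included, 14 had a mean signal over 100, and none of the 14 was called in any comparison with untreated cells. In P at 24 h their differences ran from -0.76 (HK2) to 0.66 (GPI), in C from -0.88 (HK2) to 0.67 (PKM) and in P/C from -0.86 (HK2) to 0.76 (PKM). In each of these 3 comparisons the 95% intervals, from the fit of all probe sets, of 11 of the 14 representatives lay wholly within a doubling or halving. The exceptions were HK2, GPI and PKM. Other bright probe sets of ALDOA, PGK1 and ENO1, in the filtered fit, had intervals that passed those bounds. The ALDOA one ran from 0.12 to 1.11 in P, 0.17 to 1.16 in C and 0.19 to 1.28 in P/C. A PGK1 one reached -1.03 in P and -1.04 in P/C, and an ENO1 one reached 1.19 in P/C. At 8 h the P differences of the representatives ran from -0.33 (HK2) to 0.26 (PFKM), and 12 of their 14 intervals lay within a doubling or halving.

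**Figure D3:**
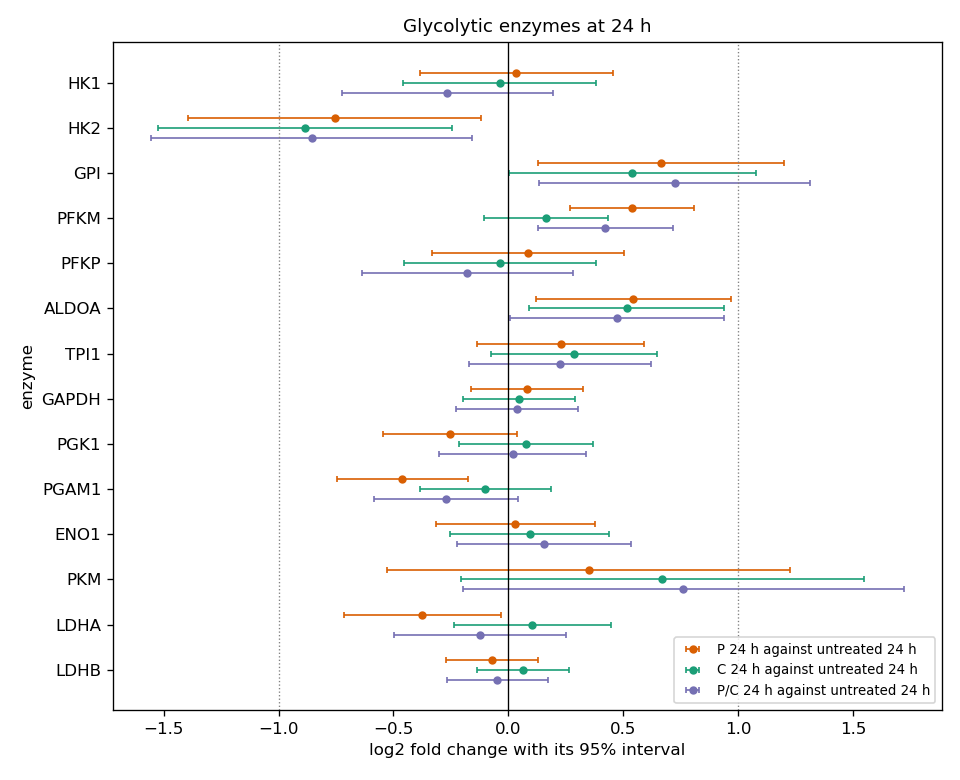
Log2 fold change at 24 h against untreated cells for the 14 glycolytic enzymes with a mean signal over 100, in pathway order, with its 95% interval from the fit of all probe sets; orange is P, green is C, purple is P/C, and dotted lines mark a log2 difference of 1 either way. Each enzyme is shown by its representative probe set. The intervals of HK2, GPI and PKM cross a dotted line, and those of the other 11 representatives stay inside in all 3 comparisons.

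PFKM, the muscle type of phosphofructokinase, which commits sugar to glycolysis, was slightly higher on the arrays with piroxicam at both times. At 8 h its signal was 8.98 and 8.90 untreated, 9.23 and 9.17 in P, 8.96 and 8.87 in C, and 9.32 and 9.07 in P/C. At 24 h it was 9.11 and 9.03 untreated, 9.72, 9.37 and 9.74 in P, 9.18, 9.19 and 9.33 in C, and 9.54 and 9.45 in P/C. It was the one gene of the 35 whose arrays with and without piroxicam did not overlap at 24 h, and they did not overlap at 8 h either. Such a lack of overlap was found at 24 h for 3.99% of all and 11.4% of the tested probe sets. At 8 h the shares were 8.19% and 17.6%. The P difference at 24 h was 0.54 (SE 0.18, limma adjusted p = 0.0348) and that over the 24 h groups 0.40 (SE 0.13, limma adjusted p = 0.0277), both past the p limit and under the fold limit. The p limit alone was passed by 28.4% and 28.6% of the tested probe sets in these comparisons.

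The other enzymes are given by their ranges over the 18 arrays. In the upper part of the pathway GPI, which turns glucose phosphate into fructose phosphate, ranged from 8.74 to 10.06, PFKP from 9.14 to 10.16, ALDOA, the aldolase, from 10.74 to 11.84 and TPI1 from 10.08 to 10.81. GPI was 0.66 higher in P at 24 h (SE 0.27, limma adjusted p = 0.0722), with the untreated arrays at 9.73 for replicate 1 and 8.74 for replicate 2. Without untreated replicate 1 the P difference was 1.16 and the P/C difference 1.22, both called (limma adjusted p of 0.0133 and 0.0295). Without untreated replicate 2 they were 0.17 and 0.23 (limma adjusted p of 0.733 and 0.727). Each of these rests on 1 untreated array, whose spread is taken from the other groups. PFKL, PFKFB3, PFKFB4 and ALDOC were below a signal of 100 on every array.

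In the lower, energy-yielding steps GAPDH lay at 12.90 to 13.19. PGK1 ranged from 10.71 to 11.22, PGAM1 from 10.10 to 10.78, ENO1 from 10.96 to 11.59 and PKM, the pyruvate kinase, from 9.39 to 11.24, with ENO2 dim at 3.04 to 4.41. PGAM1 was 0.46 lower in P at 24 h (95% interval -0.75 to -0.18, limma adjusted p = 0.0589 over all probe sets). Another PGK1 probe set, at 8.22 to 9.09, differed by -0.60 in P (limma adjusted p = 0.0406), under the fold limit, where the representative differed by -0.26. LDHA, the lactate-forming dehydrogenase that HIF induces, ranged from 11.39 to 11.98 and LDHB from 11.99 to 12.27. LDHA differed by -0.38 in P at 24 h (95% interval -0.80 to 0.05, limma adjusted p = 0.169). The pyruvate dehydrogenase kinases were dim, PDK3 at 2.14 to 2.85 and PDK1 at 2.90 to 4.46.

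Of the oxygen-sensing and collagen prolyl hydroxylases, EGLN1 (PHD2) scattered from 2.76 to 5.14, with 3.52 as its P mean at 24 h against 4.66 untreated (difference -1.14, 95% interval -2.27 to -0.01, limma adjusted p = 0.267 over all probe sets). EGLN3 lay at 1.24 to 1.83 and P4HA2 at 3.34 to 3.99. P4HA1, which modifies collagen, ranged from 5.61 to 6.75.

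BHLHE40 (DEC1), a transcriptional repressor induced by hypoxia and other stresses, had the widest range among the dim genes. At 24 h its signal was 3.79 and 3.40 untreated, 2.54, 2.13 and 1.91 in P, 3.24, 5.67 and 5.85 in C, and 5.28 and 3.05 in P/C. The high values lay on C replicates 2 and 3 and on P/C replicate 1, and the other arrays were at 3.79 or less. It was below a signal of 100 on every array, was not tested after the filter, and was not called in the fit of all probe sets (P difference -1.40, 95% interval -2.84 to 0.04, limma adjusted p = 0.289). Its second probe set was dimmer, at 1.76 to 3.07.

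Cisplatin alone called none of the 12 tested genes at 8 h or at 24 h, and no probe set of the 3057 (0%) was called either, against 1 of 22215 at 24 h in the fit of all probe sets. The smallest limma adjusted p over all tested probe sets was 0.753 at 8 h and 0.0554 at 24 h. At an unadjusted p under 0.05 there were 0 of the 12 genes at 8 h and 1 at 24 h, HK2, where 1.14% and 13.8% of the tested probe sets passed that limit. For ADM the C difference at 24 h was 0.10.

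P/C at 24 h called none of the 12, where 6.87% of the tested probe sets were called. P/C was called against neither P nor C in any of the 12 (0.164% and 0.0981% of the tested probe sets were). These counts move with single arrays. Without P/C replicate 1 they were 2 for P/C against untreated cells and 1 against C, without P/C replicate 3 the count against P was 2, and without untreated replicate 1 that against untreated cells was 1. At 24 h the P/C replicate 1 array stood apart from replicate 3. A piroxicam score was formed from the 57 probe sets outside the list that were called at 8 h between groups with and without piroxicam, as their mean log2 difference from the untreated 24 h mean, turned so that the 8 h direction counts as positive. The score was 1.47 to 1.51 on the P arrays, 0.35 to 0.40 on the C arrays, 1.30 on P/C replicate 3 and 0.466 on P/C replicate 1. Over the tested probe sets, the array that P/C replicate 1 correlated with best was C replicate 3 (r = 0.676 of the deviations from the 24 h mean).

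Between the 2 P/C arrays 6 of the 35 genes differed by more than 1, namely ADM, VEGFA, SLC2A3, PDK1, MXI1 and BHLHE40, while the median absolute difference was 0.273. Of these, ADM (7.87 on replicate 1, 6.60 to 7.84 in C), VEGFA (6.03, 6.15 to 6.71 in C), MXI1 (6.60, 6.38 to 6.78 in C) and BHLHE40 (5.28, 3.24 to 5.85 in C) lay on replicate 1 within the range of the C arrays or just outside it. On replicate 3 VEGFA (7.47) and MXI1 (7.97) lay at or above the P range of 7.19 to 7.47 and 7.24 to 7.55, and ADM (6.23) lay between the P and C ranges. BHLHE40 on replicate 3 (3.05) was above its P range of 1.91 to 2.54. SLC2A3 and PDK1 followed another pattern, with 3.78 and 3.28 on replicate 1 and, on replicate 3, 5.03 and 4.46, above every P and C array. Without P/C replicate 1, VEGFA was 1.22 (limma adjusted p = 0.0303) and MXI1 1.67 (limma adjusted p = 0.00261) higher in P/C than in untreated cells and both were called, and without replicate 3 the VEGFA difference turned to -0.21 and the MXI1 difference was 0.29 (limma adjusted p = 0.575). Each of these rests on 1 P/C array, whose spread is taken from the other groups. What set the 2 arrays apart was not tested.

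**Figure D4:**
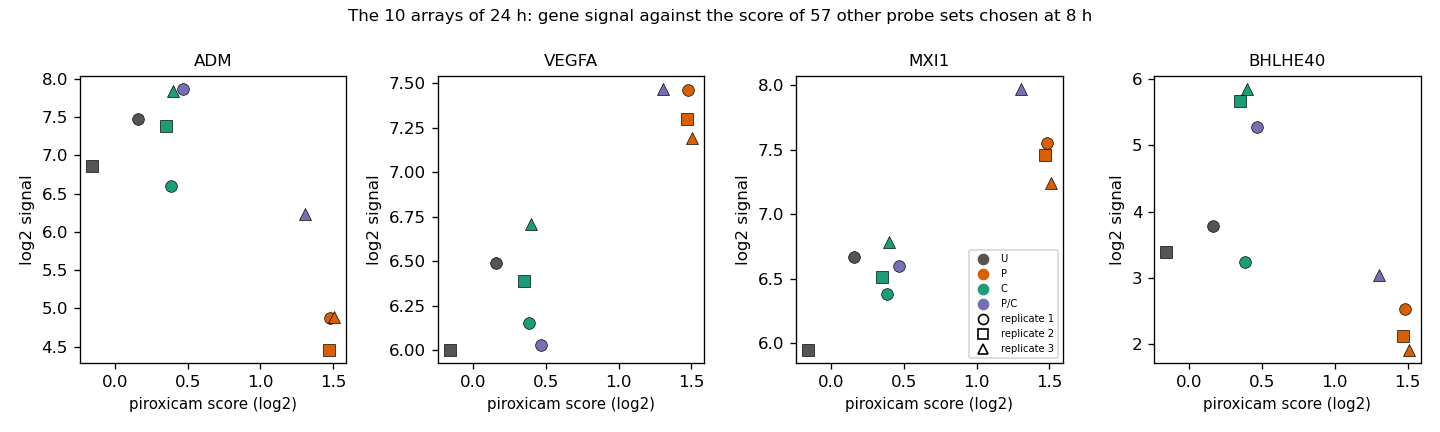
The 10 arrays of 24 h, with the piroxicam score from 57 other probe sets (log2) on the x axis and the log2 signal of ADM, VEGFA, MXI1 or BHLHE40 on the y axis; colour gives the treatment and shape the replicate number. P/C replicate 1 (score 0.466) sits by the C arrays in each panel and P/C replicate 3 (score 1.30) sits near the P arrays in the VEGFA panel.

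Across the list, the arrays with and without piroxicam did not overlap for 7 of the 35 genes at 8 h (4 arrays against 4), with VEGFA, BNIP3L, PFKM and MXI1 higher and ADM, SLC2A1 and BHLHE40 lower. Over all probe sets the share without overlap was 8.19%. Of the 12 tested genes 5 did not overlap, against 17.6% of the tested probe sets. Of these 5 all but PFKM passed the filter mainly through the groups where they are high. The count among the 12 is therefore no independent measure of a difference with piroxicam. At 24 h (5 arrays against 5) this held for PFKM only, against 3.99% of all and 11.4% of the tested probe sets, and the P/C replicate 1 array is one of the 5.

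Time in culture was the other axis along which these genes differed. The mean of the 4 groups at 24 h was compared with the mean of the 4 at 8 h, a comparison added after the values had been seen. BNIP3L rose by 1.51 (SE 0.21, limma adjusted p = 0.000167) and MXI1 by 1.20 (SE 0.16, limma adjusted p = 0.000145), and these 2 of the 12 tested genes were called, where 2.68% of the tested probe sets were and 1.18% were called higher. Both were called in the fit of all probe sets too, where 0.693% were. BNIP3L ranged from 3.79 to 6.13, with a median of 5.55, on the 8 arrays of 8 h and from 5.63 to 7.65, with a median of 6.77, on the 10 arrays of 24 h. MXI1 ranged from 5.12 to 6.18 (median 5.78) and from 5.95 to 7.97 (median 6.72). At 8 h every value of both genes was below the signal limit of the filter, 6.64 in log2. Both genes were therefore among the 12 tested only through their higher values at 24 h. For this reason the count among the 12 and the shares of the tested probe sets are no independent measure of a rise with time. The fit of all probe sets does not depend on the filter. On these representative probe sets both genes overlapped a little between times as a whole. Within each of the 4 treatments, though, every 24 h array lay above every 8 h array on them. This held for 1.8% of the tested probe sets and also for PFKM.

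The BNIP3L difference between times was 1.99 in untreated cells, 1.55 in P, 1.15 in C and 1.35 in P/C. For MXI1 it was 1.16, 1.50, 0.99 and 1.15. In untreated cells alone neither was called (limma adjusted p = 0.154 for BNIP3L and 0.545 for MXI1, where 0.0981% of the tested probe sets were called), but BNIP3L was with the 8 h replicate number as a block (limma adjusted p = 0.0452). For BNIP3L the second probe set also had a higher value at 24 h (1.13, limma adjusted p = 0.0389 over all probe sets) and was called. On that probe set, however, the times overlapped in P and in P/C. In P it was 5.50 and 6.25 at 8 h and 6.89, 6.20 and 5.97 at 24 h. In P/C it was 5.29 and 6.58 at 8 h and 6.27 and 6.96 at 24 h.

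**Figure D5:**
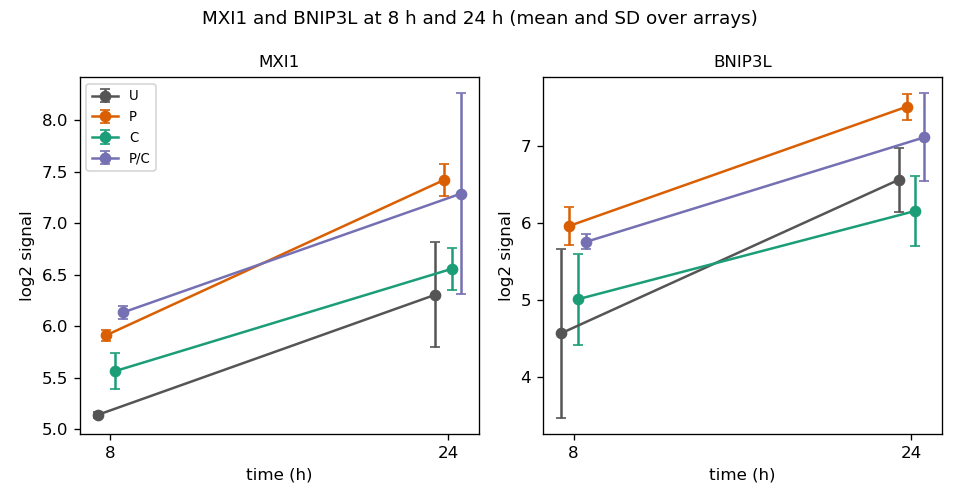
Mean log2 signal of MXI1 and BNIP3L at 8 h and 24 h in each treatment, with bars of 1 SD over the 2 or 3 arrays of a group; lines join the 2 times of a treatment and do not stand for the same cultures. All lines go up, by 0.99 to 1.50 for MXI1 and by 1.15 to 1.99 for BNIP3L.

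Past the p limit but under the fold limit between the times were HK2 at -0.54 (SE 0.16, limma adjusted p = 0.0187), GPI at 0.42 (limma adjusted p = 0.032) and PFKM at 0.29 (limma adjusted p = 0.0283), and, for BNIP3, a second probe set at 0.46 (limma adjusted p = 0.00584). Among the genes that missed the filter, so was NDRG1, at 0.33 (limma adjusted p = 0.00964 over all probe sets), with all its signals dim. The p limit alone was passed by 32.2% of the tested probe sets. HK2 differed by -0.12 in untreated cells, -0.55 in P, -0.84 in C and -0.65 in P/C, and GPI by 0.06, 0.50, 0.60 and 0.52. Whether the effect of a treatment itself differed between the times was tested as an interaction, and none of the 12 genes was called for P, C or P/C, where 0.196%, 0% and 0.0654% of the tested probe sets were. For P none of the 12 had an unadjusted p under 0.05 either, where 12.7% of the tested probe sets did. For ADM in P the interaction was -0.14, with a 95% interval of -1.85 to 1.57.

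Other genes of the pathway, from lists drawn up by function, were mostly not called or not tested. Of 11 genes of the HIF machinery 3 were tested, and EPAS1, which encodes HIF-2α, was higher in P at 24 h, with a group mean of 9.32 against 8.28 (1.05, SE 0.33, limma adjusted p = 0.0277). Of 33 further hypoxia-induced genes 8 were tested. PLOD2, a collagen lysyl hydroxylase, fell by 1.18 in P at 24 h from a mean of 7.90 to 6.71 (SE 0.32, limma adjusted p = 0.0129). Of all tested probe sets 14.6% were called in P at 24 h. DDIT4, an inhibitor of mTORC1, was called with P and P/C at 8 h, where its group means were 7.72 and 7.94 against 2.57 in untreated cells, which is below the lowest array median of 2.72, and its untreated mean at 24 h was 7.52. In P and P/C at 8 h, 0.491% and 0.622% of the tested probe sets were called. None was called in any comparison with untreated cells among the 3 tested of 15 other enzymes of glycolysis and glycogen, the 5 tested of 10 genes of pyruvate dehydrogenase and pyruvate carriers, the 3 tested of 7 of the pentose phosphate pathway and the 1 tested of 6 of gluconeogenesis.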

How the data were processed

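RNA of the MSTO-211H cells was hybridised to HGU133A arrays, and the groups of the 18 arrays were taken from the labels. The authors evaluated probe intensities and made the deposited log2 signals with GCRMA, which corrects the background, normalizes between arrays and summarises probe sets; no source used here gives its version. GCRMA pulls dim probe sets to a common floor, so differences there are compressed. The study speaks of biological triplicates, of which 2 or 3 arrays a group were analysed here, without saying how the cultures were kept apart, and p-values measure the spread between these arrays. Intensity files were not analysed here. Signals carry no read depth, and the few arrays a group limit the precision. No 2 arrays were identical, and arrays of a group correlated at 0.982 to 0.993.

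Of 22283 probe sets, 68 Affymetrix controls were dropped. A linear model with 1 mean for each group was fitted over all 18 arrays in limma (version 3.58.1, R 4.3.3; 10 residual and 5.76 prior degrees of freedom), with two-sided tests, with the Benjamini-Hochberg adjustment over the tested probe sets of a comparison, and checked on simulated data. Symbols came from the platform annotation (19071 probe sets with 1 symbol, 1043 with several, 2169 with none), and none changed through its Entrez ID. The genes, the pathway and marker lists and the rule for naming were chosen with earlier results of these data known. The rule gives the values on every array for genes called in some comparison, at least 1 uncalled gene of each role with its range, and other probe sets that differ in sign or call. The values of HK2, PFKM, SLC2A1 and BHLHE40 were added after they had been seen. At 8 h the deviations from the group mean of arrays with the same replicate number correlated at 0.203 to 0.66, above 0.1 in each of 6 pairs of groups (with 2 arrays a group, both numbers give the same value). The main fit has no block for the replicate number. Because of these 8 h correlations, which come from the data and not from a label, the number as a block was an alternative. It is given where it changes a call. Alternatives were other filters, scalings and call rules, array weights, only the arrays compared, replicate blocks and leaving out arrays.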

Additional observations from a re-analysis of the deposited data

Results flagged for a closer look

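DDIT4, which is not on the gene list but among the other hypoxia-induced genes, differed from untreated cells by different amounts at the 2 times, by the test of the interaction. The difference in P at 24 h was lower than that at 8 h by 4.08 on the log2 scale (interaction -4.08, SE 0.62, limma adjusted p = 0.0205), and in P/C the interaction was -4.66 (SE 0.65, limma adjusted p = 0.00702). The untreated mean was 2.57 at 8 h and 7.52 at 24 h, while P had 7.72 and 8.59. As the untreated 8 h mean is below the lowest array median of 2.72, the size of the 8 h differences, and so of both interactions, is not a measured fold.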

How the results depend on the processing

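Of 32 differences of named genes under 501 alternatives in all, 454 kept their direction and their side of the limits, 11 lost the call, 35 gained it and 1 turned its sign, VEGFA in P/C at 24 h, which was -0.21 without P/C replicate 3 and 1.22 without P/C replicate 1. Most of the 32 were not called in the main fit, so keeping their side mostly means staying uncalled. An alternative whose filter dropped a gene was not counted for that gene. Counts of called genes depended more on the settings. At a signal of at least 200, which ADM, VEGFA, MXI1 and BNIP3L do not reach on enough arrays, the counts were 0 in P at 24 h, 0 in the groups with against without piroxicam at both times and 0 between the times. With no filter the count with against without piroxicam at 24 h was 0. Quantile normalization gave 2 at 8 h and 2 at 24 h in that comparison, and centring of the arrays gave 2 and 3. With no fold limit it was 5 at 24 h, and 5 between the times. Array weights gave 1 in P at 8 h (ADM) and 1 in C at 24 h (HK2). Leaving out P/C replicate 1 and C replicate 1 of 24 h together gave 1 in C (HK2), 2 in P/C (VEGFA, MXI1), 1 in P/C against C (MXI1) and 3 with against without piroxicam (ADM, BNIP3L, MXI1).

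Over all tested probe sets, 445 were called in P at 24 h, against 783 with no filter, 282 at a signal of at least 200 and 250 without untreated replicate 2. In C at 24 h there were 0, against 152 without the 2 arrays that stood apart, and in P/C 210, against 404 without them and 6 without untreated replicate 2.

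Without each array in turn the counts of the listed genes were 1 to 4 in P at 24 h (1 without untreated replicate 2, 4 without untreated replicate 1), 0 to 1 in C, 0 to 2 in P/C, 0 to 2 in P/C against P (2 without P/C replicate 3) and 0 to 1 in P/C against C. With against without piroxicam they were 1 to 2 at 8 h (2 without untreated replicate 3) and 0 to 4 at 24 h (0 without P/C replicate 3, 4 without P/C replicate 1). They were 0 to 1 between the times in untreated cells (1 without untreated 8 h replicate 3) and 2 to 2 between the times over all groups.

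With the replicate number as a block at 8 h only, the counts were 1 in P at 8 h (ADM), 2 with against without piroxicam at 8 h (ADM, BNIP3L) and 1 between the times in untreated cells (BNIP3L). With a block at both times the last 2 counts were again 2 and 1, that in P at 24 h was 1 (ADM), and that in P/C against P was 1 (ADM). At 24 h same-numbered arrays deviated together or apart (r of -0.223 to 0.393). The lowest r was between C and P/C replicate 1, an array that stood apart, and among untreated, P and C arrays r was -0.102 to 0.393. These values do not settle whether the numbers pair the 24 h arrays.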
